A study of Rattus norvegicus with 9 samples.

Results

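The reads described here are isomiRs of rat heart miRNAs that held the whole mature sequence of their miRBase entry plus 1 to 3 further nucleotides (nts) at the 5′ end, the 3′ end or both ends, with every added nt matching the precursor by the annotation of the authors. They were taken from the table of annotated sequences as the rat entries whose match type was exactly Mature super, with no mismatch, and are called templated longer reads below. They comprised 471 sequences of 187 miRNAs and 980707 reads, out of 31220 rat sequences with 6248238 reads and 46358 annotated sequences of all species with 7631327 reads. The small RNA came from the free wall of the left ventricle of 3 untreated male Sprague-Dawley rats aged 8 months, numbered hearts 6, 7 and 8. Each wall was cut about 1 mm below its outer and inner surfaces into epicardium, midmyocardium and endocardium, and each piece was sequenced as its own library, so that every layer held 3 libraries and every heart 3 layers. Pieces of whole wall hold all the cell types of the layer, so fewer cells of a type and less miRNA per cell cannot be told apart.

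A miRNA is cut from its hairpin precursor by a pair of enzymes. Drosha releases the hairpin in the nucleus and Dicer then removes the loop in the cytoplasm, so that the 3′ end of a miRNA from the 5′ arm and the 5′ end of a miRNA from the 3′ arm are set by Dicer, and the opposite ends by Drosha. Target recognition rests mainly on the seed, nts 2 to 8, which an added 3′ nt leaves in place and an added 5′ nt shifts. Enzymes that add nts to finished miRNAs attach mainly A and U, and where such an nt equals the next base of the precursor, it cannot be told apart from a longer cut. All extensions are relative to the mature sequence in miRBase, so the same molecule counts as longer or not depending on where the database ends its entry.

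The most frequent sequence of each of the 10 miRNAs with the most templated longer reads is shown as sequenced, with T for U, 5′ to 3′, the mature sequence in lower case and the added nts in capitals, because these few sequences held most of the reads. The leading one made up 25.1% of all templated longer reads, the leading 5 together 72.1% and the leading 20 together 92.4%.
miR-133a: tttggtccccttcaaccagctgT
miR-30a: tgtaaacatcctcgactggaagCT
miR-30d: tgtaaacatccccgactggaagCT
miR-30e: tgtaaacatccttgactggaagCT
miR-30c: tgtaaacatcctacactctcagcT
miR-378: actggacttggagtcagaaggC
miR-92a-1: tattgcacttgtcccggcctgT
miR-26b: ttcaagtaattcaggataggtT
miR-191: caacggaatcccaaaagcagctgT
miR-186: caaagaattctccttttgggctT
In each of these, the added nts stood at the 3′ end, and the seed was that of the mature sequence. The members of the miR-30 family shared the seed GTAAACA. In RefSeq, on the rat assembly GRCr8, the hairpins that hold the sequence of miR-30a and miR-30c (copy 2) lay on chromosome 9 at 33233941 to 33234011 and 33253682 to 33253765 (plus strand), and those of miR-30e and miR-30c (copy 1) on chromosome 5 at 139637450 to 139637541 and 139634455 to 139634543 (minus strand). A RefSeq hairpin held 401 of the 471 sequences, with 787595 reads, and at least 1 sequence of 167 of the 187 miRNAs. For the others, miR-30d and miR-378 among them, that the added nts are templated rests on the deposited match type alone.

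Templated longer reads made up a similar part of every library. As a percentage of rat reads, they amounted to 15.1, 14.9 and 13.3% in the epicardium of hearts 6, 7 and 8, to 15.0, 16.3 and 18.6% in the midmyocardium and to 16.5, 14.7 and 16.5% in the endocardium. The layers overlapped, with means of 14.4% ± 1.02 in epicardium, 16.6% ± 1.79 in midmyocardium and 15.9% ± 1.06 in endocardium (SD, n = 3). The differences from epicardium were 2.19 percentage points for midmyocardium (two-sided exact permutation test, p = 0.2) and 1.48 for endocardium (exact p = 0.3), and endocardium differed from midmyocardium by -0.710 (exact p = 0.6). With 3 libraries a layer, 1 from each animal, the exact test cannot go below p = 0.1. Counting error was small, with a Wilson 95% interval of at most 0.143 percentage points to either side, and intervals here cover counting error only.

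**Figure D1:**
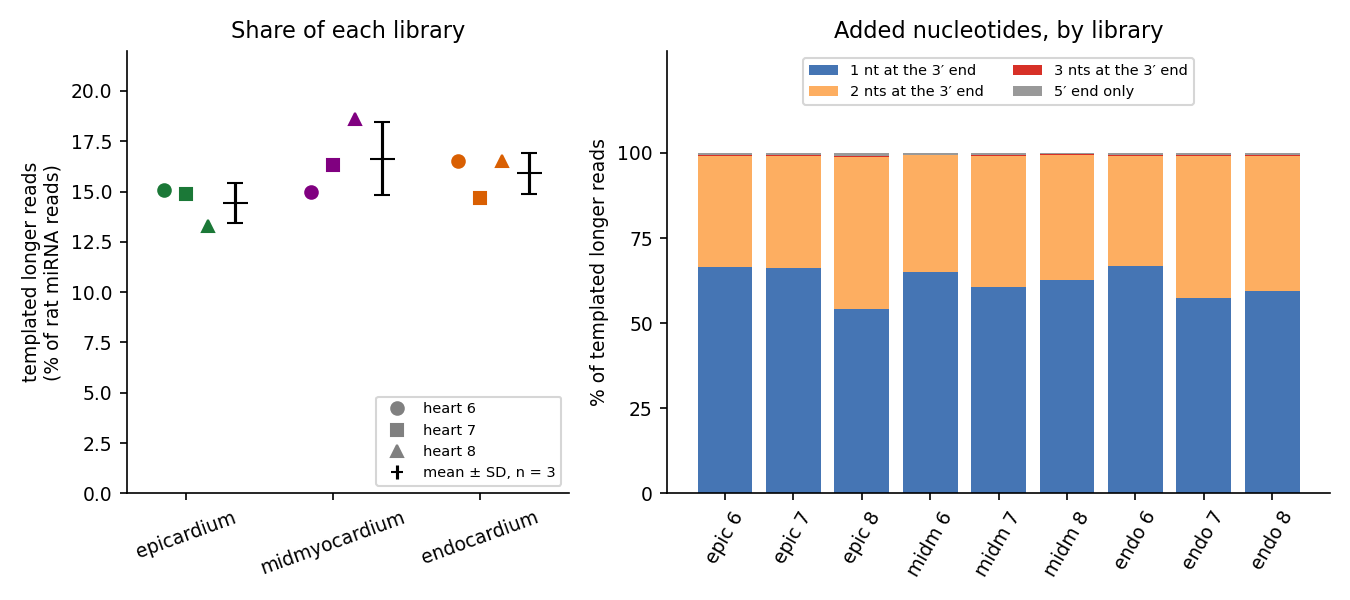
Left, templated longer reads as a percentage of the rat miRNA reads of each library (points, shaped by heart), with the mean ± SD of 3 libraries beside each layer; the layers overlap, from 13.3 to 18.6%. Right, the same reads split by the number of nts added at the 3′ end in each library; 1 nt makes up 54.1 to 66.8% and 2 nts 32.3 to 44.7%.

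Compared with the other kinds of rat reads, they were fewer than exact mature reads in every library (34.6% ± 2.81 of rat reads, SD, n = 9). Shorter reads without mismatch made up 21.0% ± 3.23 and were more frequent in 8 of 9 libraries, the exception being the midmyocardium of heart 8 with 15.7% against 18.6%. They outnumbered longer reads that carried a mismatch, which include those with a base foreign to the precursor, in every library, by 2.21 ± 0.271 reads to 1 (SD, n = 9, range 1.85 to 2.76). The number of sequences seen ran from 211 in the midmyocardium of heart 6 to 315 in the endocardium of heart 7. These libraries had the fewest and the most annotated reads. Of the 471 sequences, 158 were seen in all 9 libraries and held 99.74% of the reads, whereas 117 were seen in 1 library only and held 0.01275% of the reads.

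The 3′ end carried nearly all of the extension. Of the 466 sequences that could be aligned to a mature sequence, 323 were extended at the 3′ end only and held 99.31% of reads, 90 at the 5′ end only with 0.573%, and 53 at both ends with 0.120%. A single added 3′ nt accounted for 604643 reads of 165 miRNAs, 2 added nts for 366676 reads of 98 miRNAs, and 3 added nts for 2589 reads of 47 miRNAs. As a result of the short extensions, 36.9% of the reads were 23 nts and 50.3% were 24 nts long. Outside the 6 leading miRNAs, a single added 3′ nt was more common, at 86.5% ± 0.880 of reads against 62.1% ± 4.52 over all templated longer reads (SD, n = 9).

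By layer, reads extended at the 3′ end only formed 99.3, 99.2 and 99.1% of the templated longer reads of the epicardial libraries, 99.4% of each midmyocardial library, and 99.3, 99.3 and 99.4% of the endocardial libraries. Epicardium lay below midmyocardium by 0.177 percentage points and below endocardium by 0.111, without overlap before rounding, at the smallest p the exact permutation test can give here (two-sided exact p = 0.1 for each). Over 30 comparisons between layers, of the share of rat reads and of 9 classes of extension, the lowest Benjamini-Hochberg adjusted p of the exact tests was 0.375. Reads with 2 added 3′ nts ranged from 32.3% in the endocardium of heart 6 to 44.7% in the epicardium of heart 8, with layer means of 36.7% ± 6.98, 36.5% ± 2.12 and 38.0% ± 4.98 from epicardium to endocardium (SD, n = 3).

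miR-133a, a miRNA of heart and skeletal muscle, contributed the most templated longer reads, 250051 or 25.5% of the total. They reached 37920, 32847 and 20063 reads per 1000000 annotated reads (RPMM) in the epicardium of hearts 6, 7 and 8, 35307, 35092 and 49728 RPMM in midmyocardium, and 31196, 22378 and 36127 RPMM in endocardium. The lowest value was that of the epicardium of heart 8 and the highest that of its midmyocardium, and the layers overlapped. As a share of the reads of miR-133a, the range was narrower, with 38.8, 35.8 and 43.4% in epicardium, 36.8, 37.3 and 38.5% in midmyocardium and 37.6, 41.8 and 39.2% in endocardium.

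The end that miR-133a reached beyond its entry was more common than this share, because many of its reads lacked the first nt. Among its reads without mismatch, 91.0% ± 1.58 ended past the miRBase 3′ end (SD, n = 9) and 8.96% ± 1.58 ended on it, while 49.0% ± 3.33 were both shorter at the 5′ end and longer at the 3′ end. Those last reads are not members, since the rule asks for the whole mature sequence.

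The miR-30 family held 52.2% ± 3.77 of all templated longer reads (SD, n = 9, range 47.3 to 58.9%). The shares of its members differed widely although they have the same seed. miR-30e had 81.8% ± 1.05 of its reads in this form, miR-30c 81.3% ± 2.32, miR-30d 65.8% ± 4.16 and miR-30a 63.1% ± 3.38, but miR-30b only 0.880% ± 0.563 (SD, n = 9). For miR-30e the values were 82.1, 80.0 and 80.8% in epicardium, 81.4, 81.7 and 83.4% in midmyocardium and 82.6, 81.3 and 82.9% in endocardium. The entry of miR-30b already ends in ct, the pair that miR-30a, miR-30d and miR-30e add, as its mature sequence shows beside miR-30c.
miR-30b, mature sequence: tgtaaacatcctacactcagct
miR-30c, with its added nt: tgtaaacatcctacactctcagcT
In miR-30a, miR-30d and miR-30e the added pair CT was the rule, forming 55.0% ± 3.31, 53.8% ± 4.47 and 75.9% ± 1.15 of the reads of the miRNA, whereas the shorter form with C alone formed 8.05% ± 0.343, 11.9% ± 0.914 and 5.85% ± 0.507. Exact mature reads were few in all 3, with 3.15% for miR-30a, 3.29% for miR-30d and 1.19% for miR-30e.

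For miR-30a, the share was 60.1, 62.2 and 58.9% in the epicardium of hearts 6, 7 and 8, 64.2, 59.4 and 64.1% in midmyocardium, and 69.2, 66.4 and 63.1% in endocardium. All 3 endocardial values were above all 3 epicardial values. In limma's fit over all entries, where percent called was 0%, the log2 ratio of longer to other reads was higher in endocardium by 0.37 ± 0.16 (SE), which did not pass the threshold (limma adjusted p = 0.987). The levels of the same reads were 17839, 20844 and 29622 RPMM in epicardium, 21673, 29058 and 31626 RPMM in midmyocardium and 25554, 27519 and 28261 RPMM in endocardium, where the layers overlapped.

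Over all miRNAs, the share of templated longer reads spanned almost the whole scale. Of 305 rat miRNAs with reads annotated to the mature strand, 98 had a mean of at least 100 reads per library, and their median share was 3.80%. Templated longer reads were found in 89 of the 98. They made up over 50% of the reads of 10 miRNAs, 10 to 50% of 21, 1 to 10% of 36 and at most 1% of 22. In 19 of the 89 they outnumbered the exact mature sequence in all 9 libraries, and in 13 a templated longer sequence was the most frequent sequence of the miRNA in all 9. Over the 89 alone, the median share was 5.16%. By arm, as the reference names it, the median among these was 7.12% over 47 miRNAs of the 5′ arm and 3.52% over 31 of the 3′ arm, as a description. The other 11, miR-30d among them, had no arm given.

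**Figure D2:**
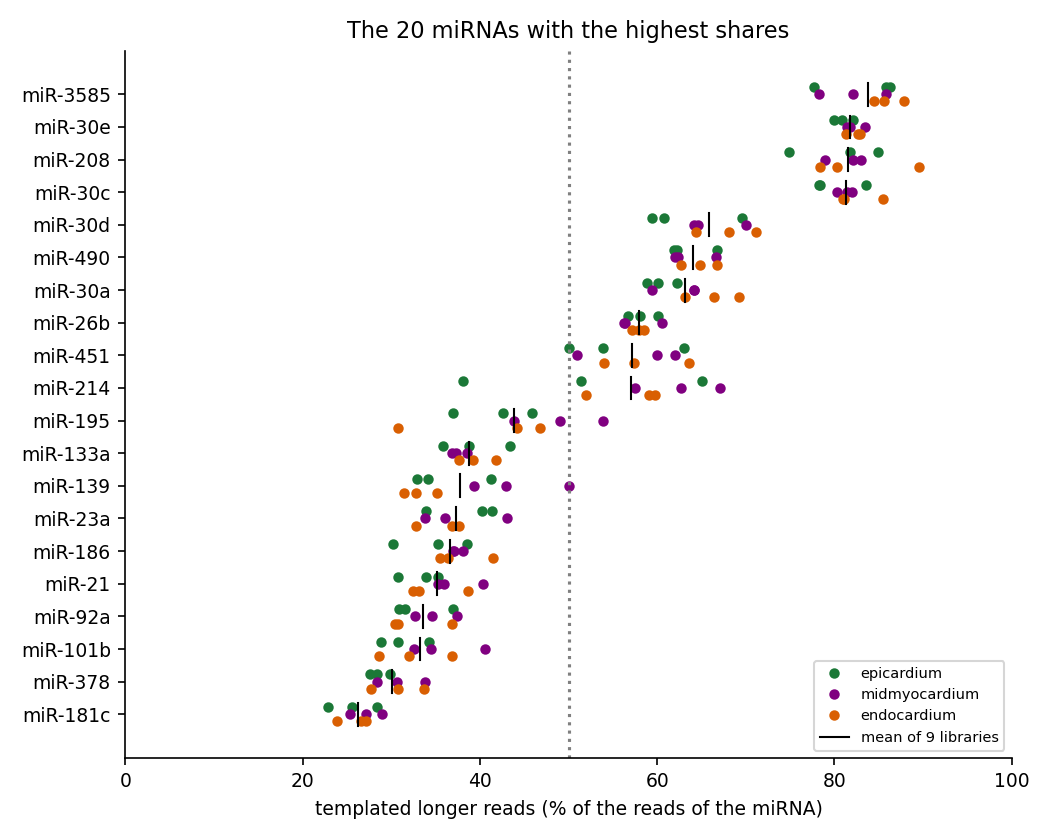
Templated longer reads as a percentage of the reads of each miRNA for the 20 miRNAs with the highest mean share among those with at least 100 reads per library; points are the 9 libraries, coloured by layer, the black bar is their mean and the dotted line marks 50%. The order runs from miR-3585 at 83.8% to miR-181c at 26.2%, and miR-214 and miR-195 have the largest SDs of the 20, 8.85 and 6.74 percentage points.

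The 10 miRNAs above 50% were, in order, miR-3585, miR-30e, miR-208, miR-30c, miR-30d, miR-490, miR-30a, miR-26b, miR-451 and miR-214. The 5 of them not yet shown had these leading forms, in which miR-3585 added G and miR-208 added 3 nts.
miR-3585: ttcacaagaaggtgtctttcatG
miR-208: ataagacgagcaaaaagcTTG
miR-451: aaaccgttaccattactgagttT
miR-490: caacctggaggactccatgctgT
miR-214: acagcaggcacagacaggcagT
miR-3585 had 83.8% ± 3.63 of its reads in the form shown, which was the sole templated longer sequence of this miRNA, at 163 ± 52.7 RPMM (SD, n = 9). Its neighbours in the order, miR-30e, miR-208 and miR-30c, lay between 81.3 and 81.8%, within 1 SD of it.

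miR-208, encoded in an intron of a cardiac myosin gene, has a mature entry of 18 nts. Its templated longer reads made up 81.8, 74.9 and 84.9% of its reads in epicardium, 82.1, 78.9 and 83.0% in midmyocardium and 89.5, 78.4 and 80.3% in endocardium, and 3 added nts were the most frequent form among them. The limit of 3 nts cut through the distribution of this miRNA: the form with 4 added 3′ nts, 22 nts long, had 1646 reads and was annotated as precursor, compared with 1378 reads for all of the miR-208 members. With passenger strand and precursor reads in the denominator, an alternative added once the values were known, the share of miR-208 was 31.3%, that of miR-3585 54.8%, that of miR-451 48.5% and that of miR-214 50.5%, and miR-30c was highest of the 10 with 79.6%. Beyond miR-208, only miR-451 with 587 reads and miR-222 with 51 had a sequence of more than 50 reads among the precursor reads that held the whole mature sequence.

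miR-451, an abundant miRNA of red cells whose precursor is cut by Argonaute 2 in place of Dicer, had 57.2% ± 5.21 of its reads templated longer. Among its templated longer reads, 145 had 3 added nts. Just inside the 50% line stood miR-451 and miR-214 at 57.2 and 57.0%, and just outside it miR-195 at 43.8% ± 6.74 and miR-133a at 38.8% ± 2.44. miR-214, which is prominent in fibroblasts, ranged from 38.1 to 67.1% between libraries, at 75.3 ± 24.3 RPMM, and miR-195 from 30.7 to 53.9%, so that both crossed the line in some libraries. miR-26b had 58.0% ± 1.54, whereas miR-26a, of the same seed, had 0.705% ± 0.216 (SD, n = 9). The entry of miR-26b is 21 nts long and that of miR-26a 22 nts, and each share is counted from its own entry.

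Shares also differed within other families. Among the let-7 family and miR-98, 1 of 8 was above 10%, with a median of 5.53%: let-7b had 17.5% ± 1.05, let-7i 0.648% ± 0.258 and miR-98 0.0976% ± 0.196. In the miR-181 family 3 of 4 were above 10% (median 17.5%), miR-181c leading with 26.2% ± 2.01, whereas miR-181a, far more abundant, had 2.40% ± 0.456. Of the miR-23, miR-27 and miR-24 clusters, miR-23a (37.3% ± 3.60) and miR-23b (25.7% ± 2.37) were high, and miR-27a, miR-27b and miR-24 lay between 0.257 and 2.80%. The 3 miRNAs of the miR-99/100 family had a median of 0.165%, the 3 of the miR-29 family 3.22% and the 2 of the miR-10 family 3.23%. In the miR-30 family, by comparison, 4 of 5 were above 50% and the median was 65.8%. Of miR-15b, miR-16, miR-195 and miR-497, 3 had at least 100 reads per library, and their median was 5.16%. Several of the most abundant miRNAs of the ventricle had low shares of these reads. The shares were 0.0607% ± 0.0199 for the smooth muscle miRNA miR-143, 0.141% for miR-22 and 1.96% ± 0.203 for miR-10a.

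Whether an added nt was the base of the precursor or another could be read from the reads that held the whole mature sequence plus exactly 1 nt at the 3′ end. In miR-133a 98.8% ± 0.121 of these reads carried the T of the precursor, in miR-30c 98.1% ± 0.870 and in miR-186 97.7% ± 0.964 (SD, n = 9). The C of the precursor made up 87.2% ± 1.60 in miR-30e, 85.4% ± 2.92 in miR-30d, 79.6% ± 2.89 in miR-30a and 74.5% ± 2.82 in miR-378. Where the precursor held C, the other bases were almost all A and T, with A at 18.7% ± 2.77 in miR-378 and 11.2% ± 2.39 in miR-30a. After the templated C, the second added nt was the T of the precursor in 98.4% ± 0.698 of reads of miR-30a and 98.7% ± 0.619 of miR-30e.

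The 10 leading miRNAs were chosen by their templated longer reads, which favours a high templated part. Among 6 further abundant miRNAs, the templated base formed 96.3% ± 1.20 in miR-181a, but under 50% in the other 5, with 41.1% ± 3.68 in miR-10a and 25.3% ± 4.05 in miR-27b. In miR-26a the G of the precursor formed 5.15% ± 1.54 of reads with 1 added nt and T 74.5% ± 2.78, in miR-143 the G formed 5.72% ± 3.61, and in miR-22 the T formed 18.2% ± 2.81 and A 81.6% ± 2.88. Among the 10 leading miRNAs, miR-191 varied most between libraries, from 61.1 to 92.7% templated. Over the templated longer reads extended at the 3′ end, which leave out foreign bases, the first added nt was T in 48.7% ± 5.10 and C in 47.9% ± 5.11, A in 2.65% ± 0.276 and G in 0.779% ± 0.180, and 84.0% ± 1.36 ended in T.

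**Figure D3:**
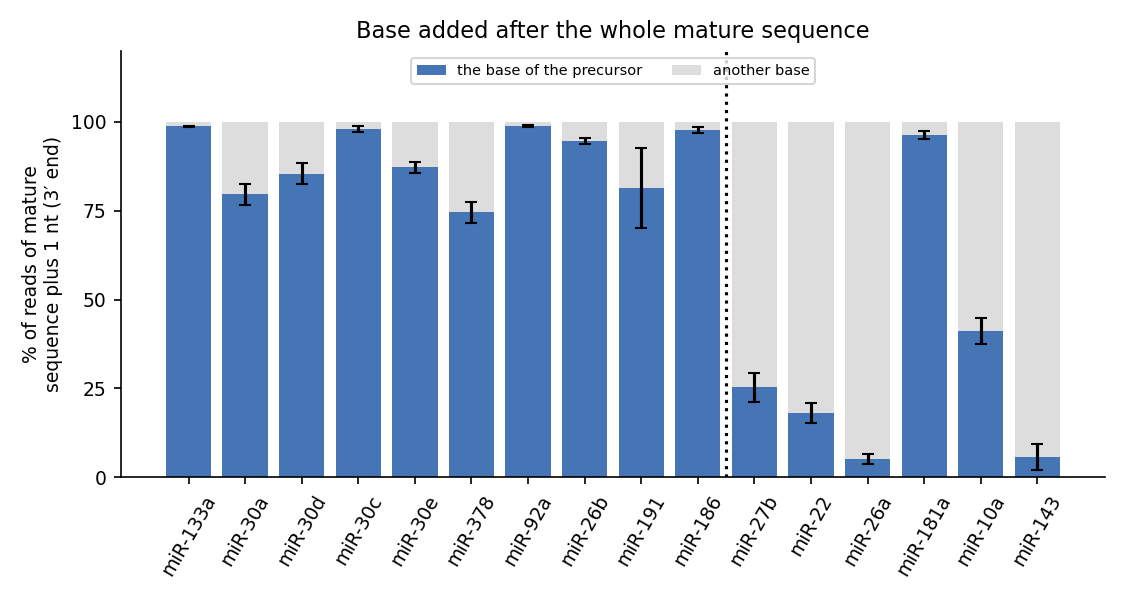
Reads of the whole mature sequence plus 1 nt at the 3′ end, split into those with the base of the precursor (blue, mean ± SD of 9 libraries) and those with another base (grey), for the 10 miRNAs with the most templated longer reads (left of the dotted line) and 6 further abundant miRNAs. The first 10 lie between 74.5 and 98.9% templated, and miR-26a and miR-143 below 6%. The first 10 were chosen by their templated longer reads, which favours a high templated part. For miR-92a both A and T count as templated.

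The added nts can also fit only 1 of the hairpin copies that give the same mature sequence, where the copies differ beyond it. The copies of miR-92a, which lie on chromosome 15 at 98588555 to 98588632 (plus strand) and on chromosome X at 137342928 to 137343019 (minus strand) of GRCr8, gave these leading forms.
miR-92a-1: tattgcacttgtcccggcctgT
miR-92a-2: tattgcacttgtcccggcctgA
Reads that fit copy 1 numbered 22790 and those that fit copy 2 numbered 2148, and copy 1 had 91.7, 89.9 and 88.0% of them in epicardium, 91.6, 92.4 and 92.4% in midmyocardium and 93.1, 91.8 and 91.3% in endocardium. The reads with A could also be copy 1 with an added A: in the other 9 leading miRNAs, where A is not templated, it formed 0.645 to 18.7% of reads with 1 added nt, compared with 9.53% ± 1.63 in miR-92a, and the 2 sources cannot be told apart.

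For let-7f, copy 2 had 95.8% ± 1.05 of 5586 such reads by its T, and copy 1 was read by its G, which formed 2.04% ± 0.537 of let-7f reads with 1 added nt. Where G was not templated, it formed at most 1.02% in the 10 leading miRNAs but 4.17% ± 2.30 in miR-10a, and where T was not templated it formed up to 82.6% (miR-143), so that for let-7f too a copy and an added base cannot be told apart. By their bases alone, copy 1 of miR-125b had 85.2% ± 9.55 of 373 reads and copy 1 of miR-128 had 87.1% ± 6.99 of 232, copy 2 of miR-181b 99.2% ± 1.63 of 219, copy 2 of let-7c 63.3% ± 9.34 of 257 and copy 1 of let-7a 73.0% ± 7.41 of 187 (SD, n = 9). In miR-125b the T of copy 1 formed only 3.87% ± 2.04 of reads with 1 added nt and the G of copy 2 0.671% ± 0.404. For these miRNAs, too, a copy was not told apart from an added base.

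**Figure D4:**
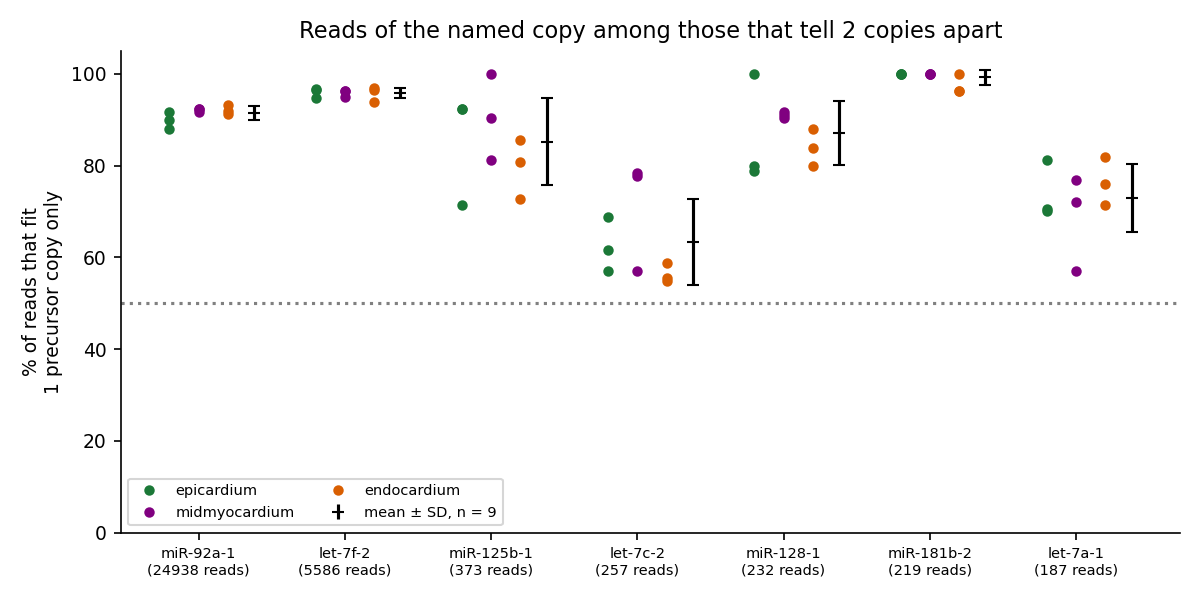
For 7 miRNAs with at least 100 templated longer reads that fit 1 of 2 hairpin copies only, the percentage of those reads that fit the named copy, by library (points, coloured by layer) with the mean ± SD of 9 libraries; the totals over both copies stand below the names. miR-92a-1 and let-7f-2 stay between 88.0 and 96.8% in every library. Reads are assigned by their bases alone, and an added base was not told apart from a copy.

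Extension at the 5′ end, which moves the seed, was rare in total but prominent in some miRNAs. The leading 5 were miR-101a with 1499 reads, miR-10b with 648, miR-29a with 531, miR-126 with 523 and miR-27b with 393. Among the templated longer reads, the most frequent 5′ extended form of each added 1 nt.
miR-101a: Gtacagtactgtgataactgaa
miR-10b: Accctgtagaaccgaatttgtgt
miR-29a: Ctagcaccatctgaaatcggtta
miR-126: Ctcgtaccgtgagtaataatgcg
miR-27b: Gttcacagtggctaagttctgc
The 5′ form made up 53.5% of the templated longer reads of miR-101a, all of those of miR-10b, 24.8% of those of miR-29a, 20.6% of those of miR-126 (an endothelial miRNA) and 7.99% of those of miR-27b. As a share of all reads of the miRNA, these were 3.71, 4.71, 1.03, 1.33 and 0.223%. Most reads of miR-10b and miR-101a that began upstream of the entry were outside the rule because they were shorter at the 3′ end: among the reads without mismatch, 99.9% ± 0.119 of miR-10b and 49.5% ± 3.96 of miR-101a began before the mature 5′ end (SD, n = 9). The paper reports for midmyocardium that most miR-10b reads began further upstream than the form shown, with the seed of miR-10a.

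The nt before the mature 5′ end was that of the precursor in at least 86.8% of reads in each of 10 miRNAs examined, the lowest being miR-133a with 66 of 76 reads. Among reads of the whole mature sequence plus 1 nt at the 5′ end, it was templated in 1499 of 1502 reads of miR-101a, 477 of 477 of miR-29a, 493 of 494 of miR-126, 365 of 383 of miR-27b, 339 of 341 of miR-143 and 439 of 440 of miR-10b. The templated longer sequences with the most added nts, among those of at least 10 reads, had 4 in all, with 31 reads for the first and 13 for the second, followed by the 1025 reads of miR-208 with 3.
miR-505: CgtcaacacttgctggtttccTCT
miR-208: TataagacgagcaaaaagcTTG

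To ask whether the use of the longer form differs through the wall, the log2 ratio of templated longer to other reads was compared between layers for the entries with a mean of at least 100 reads and 5 templated longer reads per library, 73 entries of which 68 were rat. None of the 68 passed an adjusted p of 0.05 in limma in any of the 3 comparisons, and percent called over all entries tested was 0% in each. At an unadjusted p under 0.05, 1 miRNA differed between endocardium and epicardium, 2 between midmyocardium and epicardium and 1 between endocardium and midmyocardium. The counts over all 73 entries were the same. With heart as a block in the fit, since the layers are paired by heart, the unadjusted counts were 0, 4 and 4 in that order. They were equal over the 68 and over all 73, and none passed the adjusted threshold. The median log2 difference of the 68 was 0.08, 0.11 and -0.04 in the same order, compared with 0.09, 0.12 and -0.04 over all 73. Among the 10 miRNAs with the most templated longer reads, the differences ran from -0.35 (miR-191, endocardium against midmyocardium) to 0.37 (miR-30a, endocardium against epicardium).

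**Figure D5:**
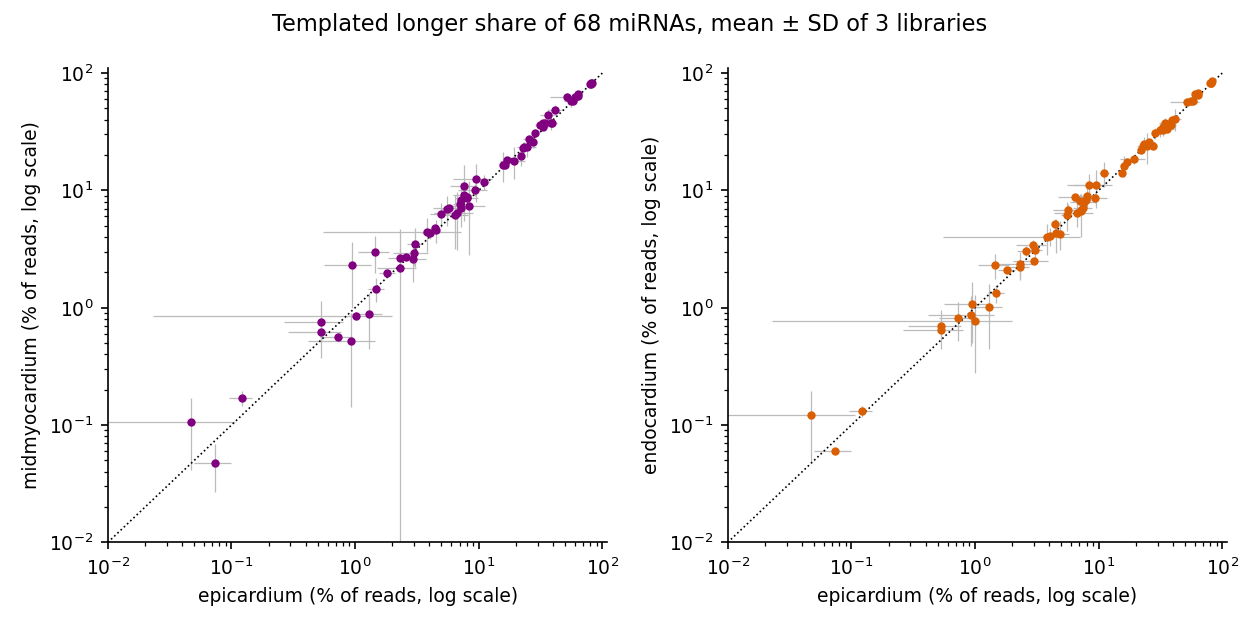
Mean templated longer share of 68 miRNAs in midmyocardium (left) and endocardium (right) against epicardium, on log axes, with bars of 1 SD of 3 libraries; the dotted line marks equal shares. The median log2 difference of the ratio from epicardium is 0.11 in midmyocardium and 0.08 in endocardium.

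The smallest p was that of miR-142, a miRNA of leukocytes, whose share was 1.41, 1.89 and 1.07% in epicardium and 1.89, 3.21 and 3.93% in midmyocardium. Its log2 ratio was higher in midmyocardium by 1.10 ± 0.27 (SE, limma adjusted p = 0.207), on 45 templated longer reads in all. miR-139 had at least 39.3% in each midmyocardial library and 31.4 to 35.2% in endocardium, a log2 difference of -0.66 ± 0.21 for endocardium (limma adjusted p = 0.908), and miR-22 differed by 0.52 ± 0.20 between midmyocardium and epicardium (limma adjusted p = 0.885). miR-99a differed by 1.26 ± 0.56 between midmyocardium and epicardium and by -1.13 ± 0.56 between endocardium and midmyocardium, miR-16 by -0.60 ± 0.27 in the latter and let-7f by 0.25 ± 0.14 between endocardium and epicardium, none of them past the adjusted threshold.

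The levels of templated longer reads gave the same count. Of the 187 miRNAs, 87 had at least 10 such reads in at least 1 library and were tested on log2(RPMM + 1) together with the other match types, 1271 sums in all. None of the 87 was called by limma in any comparison of layers, and percent called over all sums was 0%. At an unadjusted p under 0.05, limma found 3, 1 and 0 of the 87 for endocardium against epicardium, midmyocardium against epicardium and endocardium against midmyocardium, edgeR 0, 2 and 0, and DESeq2 1, 1 and 0. Over all 1271 sums the counts were 37, 46 and 41 for limma, 32, 51 and 49 for edgeR and 21, 35 and 24 for DESeq2. Among the 87, the lowest p for endocardium against epicardium was that of miR-411, with a log2 difference of -0.91 ± 0.33 (SE, limma adjusted p = 0.998). miR-100 (-1.48 ± 0.62, on 30 reads in all) and miR-10b (-1.66 ± 0.73) followed, and for miR-10b the values were 164, 101 and 120 RPMM in epicardium and 9.84, 88.2 and 65.8 RPMM in endocardium, so that the groups did not overlap. The log2 ratio of longer to other reads of miR-10b differed by only -0.10 ± 0.27 between these layers (SE, limma adjusted p = 0.987). In midmyocardium against epicardium, miR-34a differed by 1.01 ± 0.44, miR-411 by -0.70 ± 0.33 and miR-190 by 0.60 ± 0.30, and in endocardium against midmyocardium miR-99a by -0.76 ± 0.35, miR-872 by -0.74 ± 0.42 and let-7e by 0.59 ± 0.34. Reads were few, with 80 in all for miR-34a, 89 for miR-99a and 92 for miR-411. The log2 differences of the 10 leading miRNAs lay between -0.43 (miR-133a, endocardium against midmyocardium) and 0.59 (miR-30e, midmyocardium against epicardium).

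Between hearts, with layer in the fit, 1 of the 68 rat miRNAs was called by limma's F test, and percent called over all 73 entries was 1.37%. This was miR-125b (adjusted p = 0.0288), whose templated longer share was 0.366, 0.103 and 0.423% in the 3 layers of heart 6, 1.06, 0.834 and 1.01% in heart 7, and 1.36, 0.619 and 1.16% in heart 8. Heart 6 lay below the others without overlap, on 26 templated longer reads against 168 and 179, and the Wilson 95% interval of its midmyocardial value, 1 of 970 reads, ran from 0.0182 to 0.582%. The call was lost when any of 7 of the 9 libraries was left out, with layer out of the fit, at an offset of 0.1 reads and with a stricter or no filter. At an unadjusted p under 0.05, limma's F test found 9 of the 68 rat miRNAs and 11 of all 73 entries to differ between hearts. The shares of the 10 leading miRNAs gave adjusted p of at least 0.305 between hearts, the lowest for miR-30d, with 69.6 to 71.2% in heart 6, 60.8 to 68.1% in heart 7 and 59.4 to 64.4% in heart 8.

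The depth and make-up of the libraries were measured beside these values, with marker levels summed over the entries of all species. Annotated reads per library ran from 283991 in the midmyocardium of heart 6 to 1428025 in the endocardium of heart 7, and templated longer reads from 35722 to 168177. Summed levels of the muscle miRNAs (miR-1, miR-133a, miR-133b, miR-208, miR-208b and miR-499) ranged from 53470 to 106030 RPMM in epicardium, 104201 to 140953 in midmyocardium and 60695 to 102247 in endocardium, and 4 of these 6 had at least 100 rat reads per library. Those of the red cell miRNAs (miR-451, miR-144 and miR-486, the last with no rat read of the mature strand) ranged from 111893 to 162761, 93760 to 137254 and 148640 to 228823 RPMM. miR-451 and miR-144 had 4163 and 402 rat reads of the mature strand over the 9 libraries, so this sum was mainly miR-486. The paper cites miR-486 as enriched in cardiac and skeletal muscle, so the sum is no measure of red cells alone. Levels of the leukocyte miRNAs (miR-142, miR-150 and miR-223) ranged from 5737 to 12693, 7929 to 10786 and 8666 to 13407 RPMM. For smooth muscle (miR-143 and miR-145) the range over the 9 libraries was 91717 to 154785 RPMM, for endothelium (miR-126) 10726 to 16108 and for fibroblasts (miR-199a, miR-214 and miR-21) 4211 to 6236. The part of cell make-up in the values above was not tested.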

How the data were processed

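Small RNA of 9 libraries was sequenced by the authors with TruSeq chemistry, trimmed, and annotated against miRBase 18 with CLC Genomics Workbench 4.0 (per the submitters' processing notes), allowing up to 2 mismatches and up to 3 added or missing nts at each end. The deposited table gives each sequence in RPM of the annotated reads of its library, written RPMM by the authors. Dividing by the smallest value of each library gave whole reads for 100% of values (within 0.01 reads). The other deposited tables were not used.

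The RPMM values were summed per miRNA, with hairpin copies joined, and entries naming several miRNAs were left out of the shares. A share is templated longer reads over all reads annotated to the mature strand of the miRNA, mismatched reads included. Mature sequences came from the files for 444 sequences and from RefSeq for 22, and 5 sequences with 5 reads in all had none. Hairpins and coordinates came from RefSeq (GRCr8).

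Shares were tested by limma 3.58.1 (R 4.3.3) on log2((longer + 0.5)/(other + 0.5)) and levels on log2(RPMM + 1), over all 9 libraries, with Benjamini-Hochberg adjustment over everything tested and a threshold of 0.05, and single values by exact two-sided permutation tests. A fold on the log2(RPMM + 1) scale understates changes of low values. edgeR 4.0.16 and DESeq2 1.42.0 were run on the recovered reads as alternatives. The fits were tested on simulated data. The heart number pairs the layers, as each heart gave all 3. Deviations from the layer means correlated at 0.199 on average within hearts (9 pairs) and -0.0981 between hearts (18 pairs). Taking deviations from layer means of 3 hearts makes the second value negative where the first is positive, so it is no independent reference. Other alternatives covered offsets, pseudocounts, filters, denominators and leaving out each library.

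The members and lists were chosen with earlier results of these data known. The miRNAs named were the 10 highest by level and by share, the 10 smallest adjusted p below the threshold of each comparison or otherwise the 3 smallest p, the 5 with most 5′ extended reads, the 3 longest sequences, 11 abundant miRNAs, and the 2 on each side of the 50% line. Other miRNAs were named as members of the family and marker lists, or after their values were seen (miR-222, and the miRNAs with 2 hairpin copies).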

Additional observations from a re-analysis of the deposited data

How the results depend on the processing

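Depth limits the rare forms: 3 reads correspond to 2.10 to 10.6 RPMM by library. Templated longer reads made up 13.0% of all annotated reads, 19.2% of rat reads without mismatch and 13.0% of rat reads without miR-133a, compared with 15.7% of rat reads in the report. Reads extended at the 3′ end only made up 99.1% without miR-133a. The difference of the share of rat reads between endocardium and midmyocardium ran from -1.52 to 0.252 percentage points with each library left out, the positive value being that without the midmyocardium of heart 8. With at least 1000 reads per library, 5 miRNAs had most of their reads templated longer, as fewer miRNAs could be counted, and 8 to 15 did under the other settings. The count of miRNAs that differed between hearts was 0 without layer in the fit, at an offset of 0.1 reads, with no filter and with the filter of 1000 and 50 reads, and 0 to 2 with each library left out. The filter of 1000 and 50 reads left miR-125b untested. The cause of these changes was not tested. No member was called between layers under any alternative. Over all sums tested for levels at most 1 was called under any setting, and over all entries tested for shares 0. With the replicate block, the counts called at the adjusted threshold were 0 in each comparison of layers, over the members and over everything tested. Swapping layers within hearts gave p of 0.5 for each difference of the share of rat reads. It gave 0.25 (the smallest it can give) for each difference of the 3′ share. The block thus changed no call. No sequence contained the mature sequence of another rat entry, so leaving out such sequences changed nothing. The alternatives added after seeing the data were the denominator with passenger strand and precursor reads, the fit of 2 layers with the replicate block, and edgeR with the replicate block.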
